A study of Mus musculus with 4 samples.

Results

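The genes described here are the 45 autophagy and mitophagy genes of the deposited table of 19088 genes, 18 of them with a symbol starting Atg and a digit and 27 listed by symbol. Autophagy is the route by which a cell encloses part of its cytoplasm in a membrane, the autophagosome, and delivers it to the lysosome for breakdown, and mitophagy is the same process directed at mitochondria. The energy-sensing kinase AMPK, which LKB1 switches on, phosphorylates the kinase ULK1 at the head of the pathway, and the growth kinase mTORC1 holds ULK1 back. Below ULK1 act a lipid kinase complex, proteins that supply membrane, conjugation reactions that end with ATG8 proteins (LC3 and GABARAP) attached to the membrane, and receptors that tie cargo to ATG8.

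RNA was measured in group 2 innate lymphoid cells (ILC2s), lymphocytes that live in tissues and secrete type 2 cytokines, sorted from the epididymal fat of male C57BL/6 mice aged 8 weeks. The 2 WT libraries have the genotype R5/+ and the 2 KO libraries the genotype R5/+Stk11f/f, in which the LKB1 gene Stk11 is floxed, and both groups carry 1 R5 allele. The labels neither spell out R5 nor name what drives recombination. Each library came from 2000 to 4000 cells, and the labels do not tie the libraries to separate mice, so every p-value rests on the spread between these samples alone, and that spread may be technical. From its title, the study concerns the role of LKB1 in the function and mitochondria of these cells.

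Levels are FPKM, mapped fragments of a gene divided by its transcript length and by library size, as the authors deposited them. Fold changes are KO minus WT on the log2(FPKM + 1) scale, which understates the change of low genes, with the standard error (SE) of limma, a linear model fitted to all genes together, and errors of means are SD over 2 libraries. A gene was tested where its mean over the 4 libraries was at least 1 FPKM, and called where its p, adjusted over all 9818 genes tested, was under 0.05. The libraries listed 9044 to 9666 genes at 1 FPKM or more, and their FPKM totals ran from 939623 to 1069515. The table gives no read counts. All 13 listed ILC2 genes were present in every library, from 44.25 FPKM (Thy1) to 1215 FPKM (Areg), and 0 were called (limma, smallest adjusted p = 0.118, for Icos). Of these 13, Il1rl1, Rora, Arg1, Thy1 and Ptprc had both KO libraries below both WT libraries and Icos had both above. An unadjusted p under 0.05 was found for 3 (Icos, Arg1 and Rora). That is 46% not overlapping and 23% with such a p, against 39.1% and 9.18% of all genes tested. The macrophage genes Csf1r, Mrc1 and Itgam were at 0.01 FPKM or less, and C1qa and C1qc at 0.06 FPKM or less. Cd68 stood at 8.66 FPKM in KO replicate 2 and at 0.21 FPKM or less elsewhere. Lyz2 stood at 1.94 FPKM in KO replicate 2 and at 0.06 FPKM or less elsewhere. Adgre1 stood at 4.20 FPKM in WT replicate 2 and at 0.67 FPKM or less elsewhere. Of the T cell genes, Cd3g stood at 189 to 267 FPKM and the other 5 at 4.91 FPKM or less. The 8 measured macrophage genes summed to 0.65 to 11.2 FPKM and the 6 adipocyte genes to 5.44 to 145 FPKM, with overlapping groups. Markers of mast cells were higher in both KO libraries than in both WT libraries in all 9 measured of 10 listed genes. Over all genes tested this held for 18.5%. Of the 9, 2 were called, where 0.163% of all genes tested were called higher in KO. Together the mast cell genes took 1.62% and 1.25% of FPKM in WT, against 2.66% and 4.15% in KO. The 5 red blood cell genes took 5.40% and 7.87% in WT, against 7.18% and 2.83% in KO. The 4 fibroblast genes summed to 16.5 and 9.42 FPKM in WT, against 0.15 and 1.65 FPKM in KO, nearly all of it Dcn. The 3 B cell genes summed to 2.24 and 0 FPKM in WT, against 11.3 and 9.35 FPKM in KO, and the 6 T cell genes to 231 and 269 FPKM in WT, against 194 and 195 FPKM in KO. Neither Dcn nor the B cell gene Cd79a was called (limma, adjusted p = 0.146 and 0.222). Of the endothelial genes, Pecam1 ran from 5.05 to 9.11 FPKM with overlapping groups and Cdh5 from 0.04 to 0.33 FPKM, and the 2 measured neutrophil genes were at 0.16 FPKM or less. The part of any of these lists in the values below was not tested. In bulk samples, fewer cells of a type and less RNA per cell cannot be told apart.

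Stk11 itself (gene 20869, chromosome 10) was listed at 43.1 and 39.1 FPKM in WT, against 31.9 and 16.6 FPKM in KO. Both KO libraries lay below both WT libraries, but the log2 fold change of -0.81 (SE 0.37) was not called (adjusted p = 0.548 by limma). The table has 1 value for the whole gene, so floxed and other exons cannot be told apart. KO replicate 2 had the lowest value, and without it the log2 fold change was -0.35.

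The autophagy machinery was expressed across a wide range of levels, with the genes of 3 ATG8 proteins and of the receptor p62 above all other members. Of the 45 members, 4 had a mean of 100 FPKM or more over the 4 libraries, 16 lay between 10 and 100 FPKM, 20 between 1 and 10 FPKM and 5 under 1 FPKM. The 4 most abundant were Gabarapl2, Map1lc3b, Gabarap and Sqstm1, each of which exceeded at least 94.6% of the genes tested in mean FPKM. Together the 45 members took 0.193% and 0.172% of FPKM in WT, against 0.213% and 0.216% in KO. The 5 members under the filter were Pik3r4, Atg9b, Wipi1, Atg4c and Usp30.

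**Figure D1:**
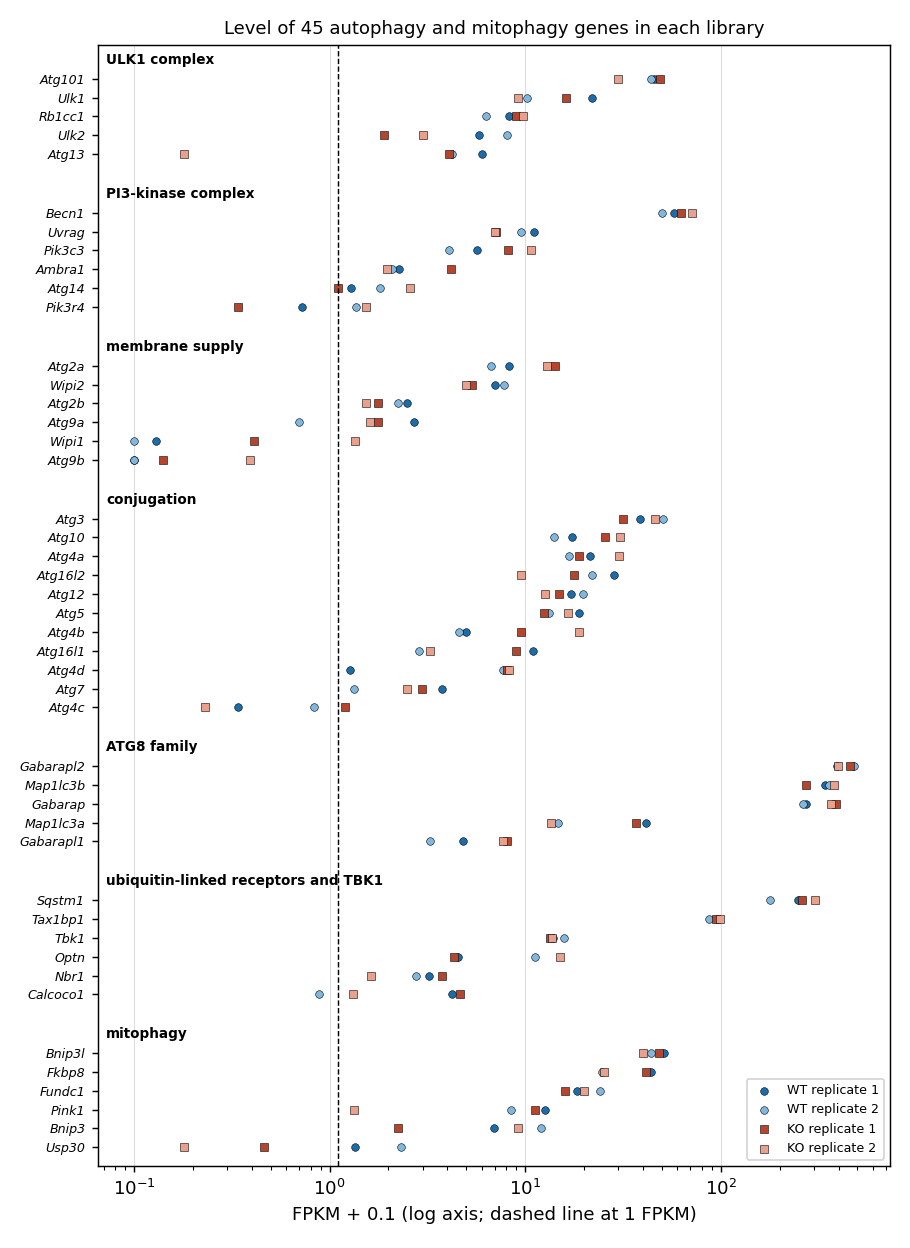
FPKM (plus 0.1, log axis) of the 45 members in each library, with circles for the 2 WT and squares for the 2 KO libraries, grouped by role and ordered by mean level within a role. Gabarapl2, Map1lc3b, Gabarap and Sqstm1 stand highest, and Atg13 and Pink1 lie far lower in KO replicate 2 than in the other libraries.

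No autophagy or mitophagy gene passed the test between KO and WT. Of the 40 members tested, 0 were called in either direction (limma, smallest adjusted p = 0.422, for Atg4b), where 0.214% of all genes tested were called, 0.163% higher and 0.0509% lower in KO. At an unadjusted p under 0.05 there were 4 members, Gabarap, Atg4b and Atg10 with higher values in KO and Ulk2 with lower, which is 10% of the 40, against 9.18% of all genes tested (4.69% higher and 4.49% lower in KO). Log2 fold changes ran from -1.36 to 1.33, with 18 positive and 22 negative, and their median was -0.04 where that of all genes tested was -0.01. Both KO libraries lay above both WT libraries in 10 members and below them in 8, which is 45% not overlapping, against 39.1% of all genes tested (18.5% above and 20.6% below). These shares are near those of the whole table. Which members had an unadjusted p under 0.05 changed with the processing.

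**Figure D2:**
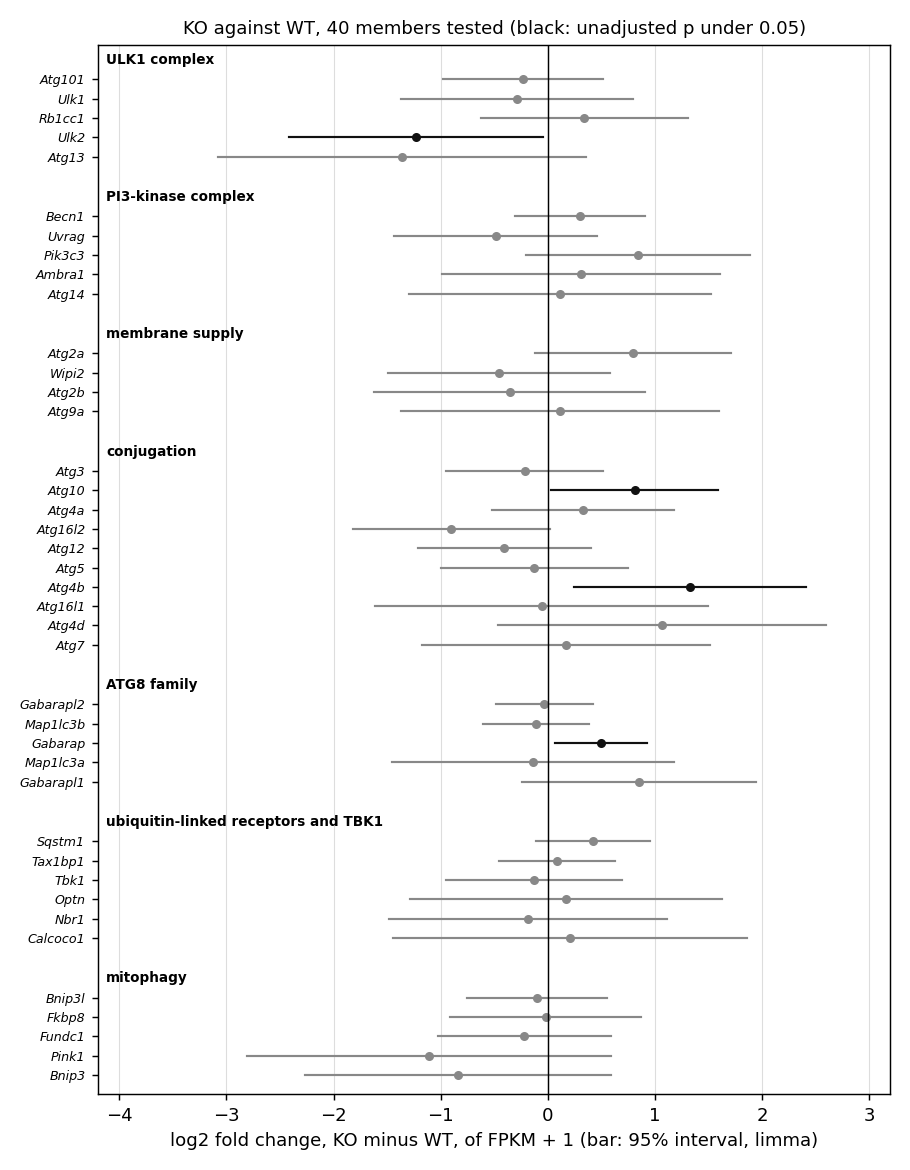
Log2 fold change (KO minus WT, of FPKM + 1) of each of the 40 members tested, with its 95% interval from limma, grouped by role, and in black where the unadjusted p is under 0.05. The interval lies above 0 for Gabarap, Atg4b and Atg10 and below 0 for Ulk2, and the other 36 include 0.

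Intervals were narrowest in the most abundant members, with much overlap between the lower bands of level. The 95% interval reached between 0.43 and 0.53 on the log2 scale to either side of the estimate in the 4 members over 100 FPKM, between 0.54 and 1.32 in the 16 members from 10 to 100 FPKM, and between 0.95 and 1.72 in the 20 members from 1 to 10 FPKM. In 8 of the 40 members the WT libraries differed from each other by more than 2-fold (of FPKM + 1), and in 7 the KO libraries did. Over all genes tested this held for 1866 genes in WT and 1853 in KO.

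**Figure D3:**
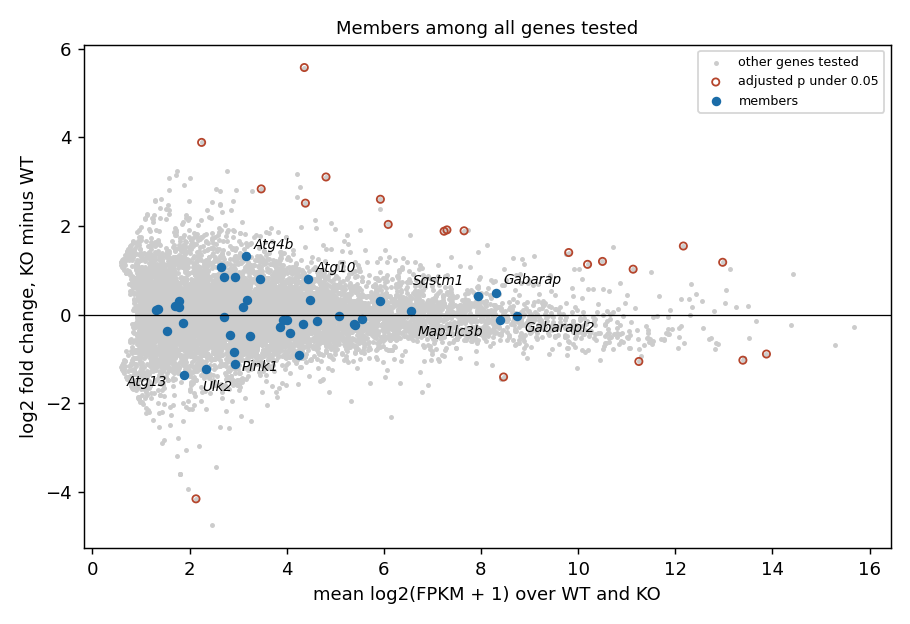
Log2 fold change (KO minus WT) against mean log2(FPKM + 1) for all 9818 genes tested in grey, with the 21 called genes ringed and the 40 members tested in blue. The members lie within the cloud of other genes at their level, and none of them is ringed.

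In the ULK1 complex, which starts autophagosome formation, the kinase genes themselves had lower mean values in KO while Rb1cc1 had a higher one. Ulk2 (gene 29869, chromosome 11 from 61775598 to 61855334), which encodes the second kinase of the pair, was listed at 5.70 and 7.97 FPKM in WT, against 1.79 and 2.90 FPKM in KO. Both KO libraries lay below both WT libraries. Its log2 fold change was -1.23 (SE 0.52) with a 95% interval from -2.42 to -0.05, and it did not pass over all genes (limma, adjusted p = 0.537). Ulk1 (gene 22241, chromosome 5), the kinase that AMPK phosphorylates, was listed at 21.9 and 10.1 FPKM in WT, against 15.98 and 9.10 FPKM in KO. The groups overlapped, and in each group replicate 1 was the higher. The log2 fold change of Ulk1, -0.29 (SE 0.48), ranged from -0.81 to 0.23 with 1 library left out. Atg13, the subunit that ties the kinases to the complex, was listed at 5.89 and 4.15 FPKM in WT, against 3.98 and 0.08 FPKM in KO. KO replicate 2 stood apart there, and the log2 fold change of -1.36 (SE 0.75) was -0.26 without that library. Atg101, which stabilises ATG13, stood at 44.8 ± 1.21 FPKM in WT and 39.3 ± 13.7 FPKM in KO. Rb1cc1, the large scaffold also called FIP200, stood at 7.16 ± 1.39 and 9.27 ± 0.51 FPKM.

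In the PI3-kinase complex, which marks the forming membrane with a phosphorylated lipid, 4 of the 5 tested members had positive log2 fold changes and 0 were called. Over all genes tested, 49.1% were positive. The 1 negative value became 2 of 5 without WT replicate 1 or without KO replicate 2, and 2 of 6 without KO replicate 1. The catalytic subunit gene Pik3c3, also known as VPS34, was listed at 5.57 and 3.99 FPKM in WT, against 8.07 and 10.6 FPKM in KO. The groups did not overlap, and the log2 fold change was 0.84 (SE 0.46, adjusted p = 0.609 by limma). Becn1, the beclin subunit (gene 56208, chromosome 11 from 101288258 to 101302286), was the most abundant of the complex, at 57.3 and 50.2 FPKM in WT, against 62.2 and 71.0 FPKM in KO. Its KO libraries were again both above the WT libraries, by a log2 fold change of 0.30 (SE 0.27, adjusted p = 0.795 by limma). Uvrag, the subunit of the form that acts on endosomes, was listed at 11 and 9.38 FPKM in WT, against 7.02 and 6.91 FPKM in KO, giving a log2 fold change of -0.49 (SE 0.42, adjusted p = 0.784 by limma). Here the KO libraries were both below the WT libraries. Atg14, which brings the complex to the autophagosome, and Ambra1, a beclin-binding regulator, stayed under 5 FPKM in every library with overlapping groups. Pik3r4, the regulatory subunit gene, was listed at 0.24 to 1.43 FPKM and was not tested.

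Among the genes that bring lipid to the growing membrane, the ATG2 lipid transfer genes had log2 fold changes of opposite sign, and 0 of the 4 tested members were called. Atg2a was listed at 8.18 and 6.55 FPKM in WT, against 14.1 and 12.9 FPKM in KO. The groups did not overlap and the log2 fold change was 0.80 (SE 0.40, adjusted p = 0.574 by limma). Its relative Atg2b was listed at 2.39 and 2.15 FPKM in WT, against 1.67 and 1.44 FPKM in KO, giving a log2 fold change of -0.36 (SE 0.56). Both KO libraries lay below both WT libraries in this gene. Wipi2, a reader of the phosphorylated lipid, was listed at 6.92 and 7.70 FPKM in WT, against 5.25 and 4.86 FPKM in KO, giving a log2 fold change of -0.46 (SE 0.45, adjusted p = 0.822 by limma). Atg9a, which encodes the membrane protein of the seed vesicles, ran from 0.60 to 2.59 FPKM with overlapping groups. Wipi1 was listed at 0.03 and 0.00 FPKM in WT, against 0.31 and 1.25 FPKM in KO, and Atg9b at 0.00 in both WT libraries and at 0.04 and 0.29 FPKM in KO, so neither was tested.

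The conjugation genes, whose products attach ATG12 to ATG5 and ATG8 to lipid, held 2 of the 4 members with an unadjusted p under 0.05. That is 20% of the 10 tested conjugation genes, against 9.18% of all genes tested, and 0 of the 10 were called. Atg4b (gene 66615, chromosome 1 from 93754905 to 93789606), a protease that trims new ATG8 proteins and frees used ones from the membrane, was listed at 4.87 and 4.50 FPKM in WT, against 9.37 and 18.6 FPKM in KO. Both KO libraries were higher, and they differed from each other more than the WT libraries did. The log2 fold change was 1.33 (SE 0.47) with a 95% interval from 0.25 to 2.41 (limma, adjusted p = 0.422). It was 0.87 without KO replicate 2. Atg10 (gene 66795, chromosome 13 from 90935348 to 91224725), the enzyme that passes ATG12 to ATG5, was listed at 17.2 and 13.9 FPKM in WT, against 25.5 and 30.4 FPKM in KO. The groups did not overlap, and the log2 fold change was 0.81 (SE 0.34) with a 95% interval from 0.03 to 1.59 (limma, adjusted p = 0.537).

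The substrates of ATG10 had lower mean values in KO. Atg12 stood at 18.4 ± 1.86 FPKM in WT and 13.7 ± 1.58 FPKM in KO, with both KO libraries below both WT libraries, and Atg5 at 15.97 ± 4.07 and 14.5 ± 2.89 FPKM, with overlapping groups. Atg3, which passes ATG8 to lipid and was the most abundant conjugation gene, was listed at 38.7 and 50.8 FPKM in WT, against 31.6 and 45.9 FPKM in KO. Its groups overlapped, and the log2 fold change of -0.21 (SE 0.32) was 0.05 without KO replicate 1. Atg7, the activating enzyme of both reactions, stood at 2.44 ± 1.70 and 2.64 ± 0.33 FPKM. Of the ATG16L scaffolds, Atg16l1 ran from 2.76 to 10.9 FPKM with WT and KO overlapping, whereas Atg16l2 was listed at 28.5 and 21.96 FPKM in WT, against 17.6 and 9.41 FPKM in KO. Both KO libraries lay below both WT libraries in Atg16l2, and the log2 fold change was -0.90 (SE 0.40, adjusted p = 0.543 by limma). The other ATG4 genes were Atg4a, at 19.0 ± 3.35 and 24.5 ± 7.97 FPKM, Atg4d, at 1.17 and 7.62 FPKM in WT, against 7.96 and 8.16 FPKM in KO, and Atg4c, which stayed at 1.1 FPKM or less and was not tested.

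The ATG8 proteins are the small ubiquitin-like proteins that coat the autophagosome, and 3 of their 5 genes made up nearly all of the family's FPKM. Gabarap (gene 56486, chromosome 11 from 69991370 to 69994949) was listed at 272 and 262 FPKM in WT, against 389 and 365 FPKM in KO. The KO libraries were both higher and each group was tight, with means of 267 ± 7.06 and 377 ± 17.4 FPKM. The log2 fold change was 0.49 (SE 0.19) with a 95% interval from 0.06 to 0.93, and it did not pass over all genes (limma, adjusted p = 0.470). With each library left out in turn it lay between 0.45 and 0.54. The unadjusted p of Gabarap by limma depended on the processing. It was 0.010 when each library was rescaled to 1 common total and 0.065 with a correction for transcript length. These were the lowest and highest values among the fits with all 4 libraries.

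Map1lc3b, which encodes LC3B, the usual marker of autophagosomes, was listed at 342 and 357 FPKM in WT, against 274 and 381 FPKM in KO. The KO libraries lay on either side of the WT libraries, and the log2 fold change was -0.11 (SE 0.22) with a 95% interval from -0.61 to 0.39. Gabarapl2, the most abundant member of all 45, was listed at 392 and 483 FPKM in WT, against 457 and 396 FPKM in KO, giving a log2 fold change of -0.03 (SE 0.20) with a 95% interval from -0.48 to 0.42. Its groups overlapped. Gabarapl1 was low, at 4.73 and 3.15 FPKM in WT, against 7.99 and 7.61 FPKM in KO, with both KO libraries higher and a log2 fold change of 0.85 (SE 0.48, adjusted p = 0.628 by limma). Map1lc3a varied within each group more than between them, at 41.4 and 14.6 FPKM in WT, against 36.7 and 13.5 FPKM in KO.

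Within the ATG8 family, Gabarap made up 25.9% and 23.4% of the summed FPKM in WT, against 33.4% and 31.4% in KO, a share that does not depend on the scaling of a library. The KO libraries were both higher, and the smallest two-sided p that an exact permutation test allows with 2 against 2 is 0.333. The sum itself was 1052 and 1119 FPKM in WT, against 1166 and 1163 FPKM in KO. Among the ATG4 genes the sum was 27.6 and 29.4 FPKM in WT, against 37.3 and 57.0 FPKM in KO, of which Atg4b made up 17.6% and 15.3% in WT, against 25.2% and 32.7% in KO. These shares were computed after the values had been seen.

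**Figure D4:**
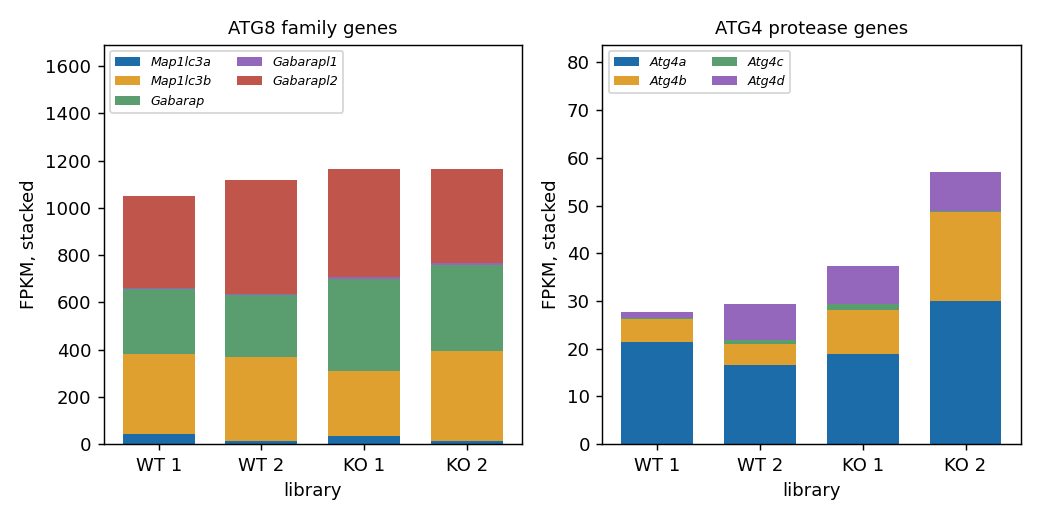
FPKM of the 5 ATG8 family genes (left) and the 4 ATG4 protease genes (right), stacked by gene, in each of the 4 libraries. The Gabarap layer is thicker in the KO libraries (389 and 365 FPKM) than in the WT libraries (272 and 262 FPKM), and the ATG4 stack is tallest in KO replicate 2 at 57.0 FPKM.

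The cargo receptors grouped with Tbk1 were led by Sqstm1, which encodes p62 and is both a receptor and a substrate of autophagy. Of the 6 tested members of this group, 0 were called. Sqstm1 (gene 18412, chromosome 11 from 50200152 to 50210820) was listed at 247 and 178 FPKM in WT, against 259 and 305 FPKM in KO. The KO libraries were both higher, KO replicate 1 by a small margin over WT replicate 1. Its log2 fold change was 0.42 (SE 0.23, adjusted p = 0.627 by limma), and 0.18 without WT replicate 2. Tax1bp1 was listed at 95.5 and 87.1 FPKM in WT, against 94.2 and 99.5 FPKM in KO, with overlapping groups and a log2 fold change of 0.09 (SE 0.24), from 0.02 to 0.15 with 1 library left out. Tbk1, the kinase that phosphorylates these receptors, was listed at 13.9 and 15.8 FPKM in WT, against 13.3 and 13.6 FPKM in KO, giving a log2 fold change of -0.13 (SE 0.36, adjusted p = 0.953 by limma). Both KO libraries lay just below the WT libraries, and the log2 fold change was -0.04 without WT replicate 2 and -0.21 without WT replicate 1. Optn, Nbr1 and Calcoco1, the other receptors, ran from 0.78 to 15.0 FPKM, and in each of them the WT and KO libraries overlapped.

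The mitophagy genes proper had negative log2 fold changes in all 5 tested members, from -1.11 to -0.02, against 50.9% of all genes tested, and in 3 of the 5 when each library was rescaled to 1 common total, against 43% of all genes then. Of the 5, 0 were called, and the WT and KO libraries overlapped in every one. With median-ratio scaling 4 of the 5 were negative, against 49.5% of all genes. Negative values numbered 3 of 5 without WT replicate 1 and 5 of 5 without WT replicate 2. They numbered 5 of 6 tested without KO replicate 1 and 3 of 6 without KO replicate 2. Pink1 (gene 68943, chromosome 4 from 138313409 to 138326296), the kinase that accumulates on damaged mitochondria, was listed at 12.5 and 8.34 FPKM in WT, against 11.1 and 1.23 FPKM in KO. KO replicate 2 alone was low, and the log2 fold change of -1.11 (SE 0.75, adjusted p = 0.710 by limma) was 0.11 without it and -2.33 without KO replicate 1. Bnip3 (gene 12176, chromosome 7), a receptor in the outer mitochondrial membrane that hypoxia induces, was listed at 6.87 and 11.99 FPKM in WT, against 2.15 and 9.14 FPKM in KO. In this gene KO replicate 1 was the low library, and the log2 fold change of -0.84 (SE 0.63, adjusted p = 0.737 by limma) was 0.004 without it. The lowest values of Pink1 and of Bnip3 thus came from different KO libraries.

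The more abundant mitophagy receptors had log2 fold changes nearer to 0. Bnip3l, also called NIX, was listed at 51.2 and 43.9 FPKM in WT, against 48.3 and 40.1 FPKM in KO, giving a log2 fold change of -0.10 (SE 0.29) with a 95% interval from -0.76 to 0.55. Fundc1 was listed at 18.3 and 23.9 FPKM in WT, against 15.9 and 19.9 FPKM in KO, giving a log2 fold change of -0.22 (SE 0.35) with a 95% interval from -1.02 to 0.59. Without WT replicate 2 the value of Fundc1 was -0.03, and without WT replicate 1 it was -0.40. In both genes the groups overlapped, and the intervals still hold changes of more than 0.5 on the log2 scale in either direction. Fkbp8 stood at 34.1 ± 13.5 FPKM in WT and 33.3 ± 11.3 FPKM in KO. Usp30, the deubiquitinase that opposes mitophagy driven by PINK1, was listed at 1.25 and 2.23 FPKM in WT, against 0.36 and 0.08 FPKM in KO. Both KO libraries were below both WT libraries, but the mean of 0.98 FPKM was under the filter and the gene was not tested.

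**Figure D5:**
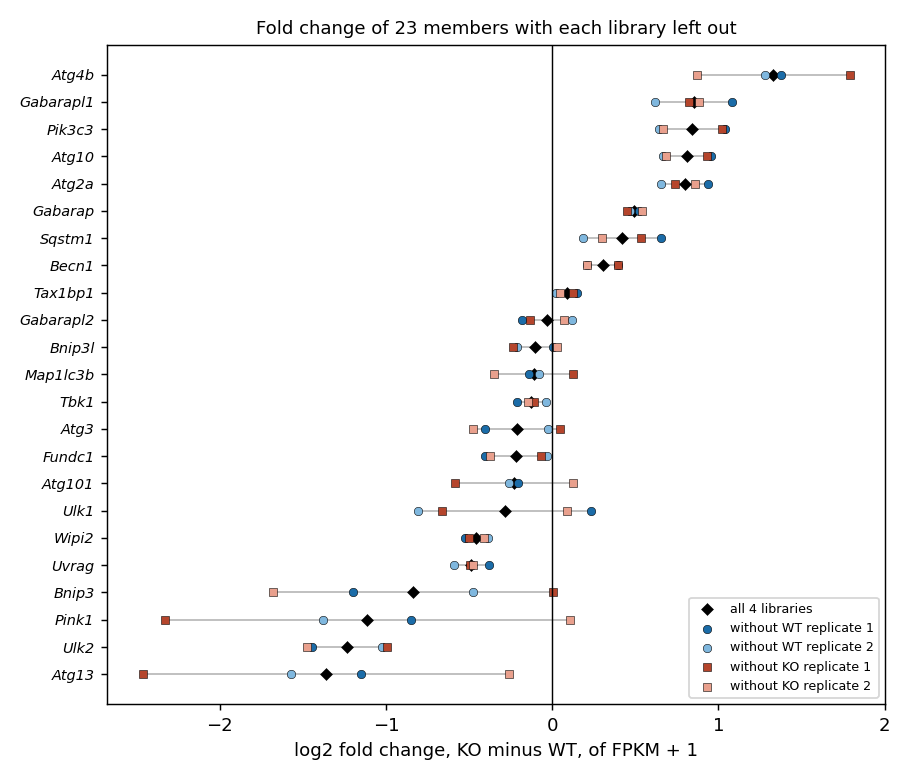
Log2 fold change (KO minus WT) of the 23 members named by rule, with all 4 libraries (diamonds) and with each library left out in turn (circles for WT, squares for KO). Gabarap stays within 0.45 to 0.54, while Pink1 ranges from -2.33 to 0.11 and Atg13 from -2.46 to -0.26.

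Genes around the core pathway did not pass either. In 5 further lists of 80 genes, covering autophagosome fusion, transcriptional regulators, AMPK and mTORC1 inputs, other mitophagy genes and other cargo receptors, 70 were tested and 0 were called in either direction. Over all genes tested, 0.214% were called. At an unadjusted p under 0.05 there were 2 genes, 2.86% of the 70, against 9.18% of all genes tested. The median log2 fold change of the 70 was -0.03. One of the 2 was Atf4, a transcription factor of the integrated stress response that induces autophagy genes, which was listed at 220 and 242 FPKM in WT, against 334 and 363 FPKM in KO. The groups did not overlap, and the log2 fold change was 0.59 (SE 0.20, adjusted p = 0.380 by limma). The other was Prkag2, a regulatory subunit of AMPK, at 2.88 and 3.31 FPKM in WT, against 7.20 and 9.13 FPKM in KO, giving a log2 fold change of 1.16 (SE 0.48, adjusted p = 0.531 by limma). Here too both KO libraries were higher.

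Of the 9 transcriptional regulators, the next after Atf4 by unadjusted p was its partner Ddit3, which encodes CHOP, at 174 ± 43.4 FPKM in WT and 262 ± 102 FPKM in KO, with overlapping groups. Among 18 tested further mitophagy genes, 12 (66.7%) had negative log2 fold changes and the median was -0.23, against 50.9% and -0.01 over all genes tested, and 0 were called. When each library was rescaled to 1 common total, 10 of the 18 were negative and the median was -0.13, against 43% and 0.10 over all genes. Tomm7, an import subunit that holds PINK1 at the outer membrane, stood at 119 ± 4.15 and 87.1 ± 10.01 FPKM, a log2 fold change of -0.45 (SE 0.24, adjusted p = 0.591 by limma). Both KO libraries of Tomm7 lay below both WT libraries.

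Among 19 tested genes of autophagosome fusion and maturation, the smallest p belonged to Vps39, a subunit of the HOPS tethering complex, at 6.83 and 11.7 FPKM in WT, against 5.78 and 0.62 FPKM in KO. KO replicate 2 was the lowest library, as it was for Atg13 and Pink1, and the log2 fold change of -1.59 (SE 0.71) was not called (limma, adjusted p = 0.543). Vmp1, a scramblase of the endoplasmic reticulum, ran from 45.8 to 123 FPKM with overlapping groups. Of the 8 tested further cargo receptors, Tex264, a receptor for the endoplasmic reticulum, stood at 22.97 ± 2.55 FPKM in WT and 14.1 ± 3.66 FPKM in KO, and Ncoa4, the ferritin receptor, at 22.5 ± 2.52 and 27.6 ± 5.59 FPKM. Neither was called (limma, adjusted p = 0.595 and 0.858).

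Many autophagy and lysosome genes are induced by TFEB, TFE3 and MITF, which bind the letters CACGTG, the core of the CLEAR element and a site that other factors such as MYC and USF1 share. Tfeb was listed at 3.82 and 1.06 FPKM in WT, against 0.55 and 0.24 FPKM in KO, where both values were under 1 FPKM. Tfe3 stood at 5.92 ± 2.16 and 9.09 ± 4.88 FPKM. Mitf was listed at 6.30 and 2.76 FPKM in WT, against 5.12 and 2.49 FPKM in KO. None of these genes was called (limma, adjusted p = 0.652, 0.833 and 0.958). The groups overlapped for Tfe3 and Mitf but not for Tfeb. The promoters, taken from RefSeq on GRCm38.p6 as 250 bases before to 50 bases after the gene's start, were found for 38 of the 45 members. The letters, which read the same on both strands, occurred in the promoters of 6 of the 38 (15.8%), against 8.09% of 27025 genes with an entry and 12.1% of the 7984 tested genes with one. The 30-base windows around each occurrence are shown on the strand of the gene, with the motif in capitals, because they are the members in which the TFEB family's letters can be read.
Atg3 (chr16:45158723-45158752, plus strand): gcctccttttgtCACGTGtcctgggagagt
Atg3 (chr16:45158746-45158775, plus strand): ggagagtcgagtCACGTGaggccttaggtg
Atg5 (chr10:44268313-44268342, plus strand): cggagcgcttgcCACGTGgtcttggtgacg
Atg7 (chr6:114670952-114670981, plus strand): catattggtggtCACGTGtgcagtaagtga
Atg14 (chr14:47568418-47568447, minus strand): aaaacaaaatccCACGTGactggccctgag
Bnip3 (chr7:138909597-138909626, minus strand): gcgcacgcgccgCACGTGccacacgctccc
Tbk1 (chr10:121586772-121586801, minus strand): cccgcactcggtCACGTGctccgtggcccg
In Atg3 the motif occurred at 2 places, and the second window begins inside the first. For Atg5 and Atg7 the motif lies inside the span that the RefSeq gene table gives the gene, since the start used for the promoter is not the outermost one. The Tbk1 motif also lies inside the span, beginning at position 6 after the gene's start. The Atg14 motif begins at position -1 and runs across the gene's start. Log2 fold changes of these 6 members were -0.21 for Atg3, -0.12 for Atg5, 0.17 for Atg7, 0.12 for Atg14, -0.84 for Bnip3 and -0.13 for Tbk1, with 0 called. The 6 members shown do not include the 4 with an unadjusted p under 0.05. For 7 of the 45 members no promoter was found. For a member that is not shown, absent letters and an absent promoter entry are not told apart here. A match in sequence is a description and does not show binding.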

How the data were processed

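The authors deposited 1 table of FPKM values with a column per library, rounded to 2 decimals. The submitters' processing notes name the tools Bowtie2, RSEM and DESeq2 and the assembly GRCm38.p6; what each tool did, with which settings, and whether libraries keep strand is not given in the sources used here. Depth is unknown, so no counting intervals are given, and genes that share reads with close relatives or antisense partners are uncertain to that extent.

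Here log2(FPKM + 1) was fitted with limma 3.58.1 in R 4.3.3 (trend and robust moderation, group as the term) over the genes whose mean reached 1 FPKM, with Benjamini-Hochberg adjustment over all of them and a threshold of 0.05. On data simulated for the KO and WT comparison (10 runs, 9818 genes), calls were made for 10.4% of genes moved by 1 (log2), 52% of those moved by 2 and 0.0582% of unchanged genes. Coordinates came from RefSeq on GRCm38.p6 (1-based), and transcript lengths, used in 1 alternative, from GENCODE M21.

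The members and lists were chosen with earlier results of these data known, so no set test and no p over the members is given. Named were Stk11, in each role group the 2 members of smallest p and the most abundant, 10 members in any case, and 2 genes of smallest p in each further list. Other members were described by level, with exceptions that the rule did not set. Log2 fold changes are also given for Atg2b and Atg16l2, and for Atg5, Atg7 and Atg14 beside the promoter windows. Tfeb, Tfe3 and Mitf are outside the rule as well. A gene that this rule names in the list of further mitophagy genes is not reported here.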

Additional observations from a re-analysis of the deposited data

How the results depend on the processing

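In each of the 12 alternatives, 0 of the members tested were called (limma). The count of called genes over the whole table fell from 21 to 0 with a pseudocount of 0.1, without a filter on low values, with quantile normalization and with the replicate block, and to 1 with median-ratio scaling. It ranged from 0 to 1 with 1 library left out. Over all genes, 901 had an unadjusted p under 0.05. The cause was not tested. The members' median log2 fold change of -0.04 was 0.068 when each library's FPKM was rescaled to 1 common total (TPM scaling), which moved the median of all genes from -0.01 to 0.10. It ranged from -0.15 to 0.10 with 1 library left out, and Stk11 ranged from -1.26 to -0.35. TPM scaling turned the sign of Gabarapl2 (0.094), Bnip3l (0.018) and Map1lc3b (0.014), and quantile normalization that of Gabarapl2 (0.024). Leaving out 1 library moved 14 of the 23 named members by over 1.5 times, 6 of them with the same sign (Atg13, Atg4b, Sqstm1, Tax1bp1, Fundc1 and Tbk1). It turned the sign of the other 8, whose log2 fold changes then ranged from -0.81 to 0.23 for Ulk1, -0.58 to 0.12 for Atg101, -0.48 to 0.049 for Atg3, -0.18 to 0.12 for Gabarapl2, -0.35 to 0.13 for Map1lc3b, -2.33 to 0.11 for Pink1, -1.68 to 0.004 for Bnip3 and -0.23 to 0.026 for Bnip3l. The replicate numbers do not pair the samples by any label, and deviations of same-numbered libraries from their group means correlated at 0.025 over genes. With the block, 5 members (12.5%) had an unadjusted p under 0.05, where 10.3% of all genes did. Without it there were 4 (10%), where 9.18% of all genes did. These counts of members are of fits with all 4 libraries and do not show how stable the share is with fewer. With 1 library left out, 1 group holds 1 library, and the count is not given. The count was also 5 with quantile normalization. It was 3 with TPM scaling, with transcript length correction and with a filter of 5 FPKM in 2 libraries. With the block, the smallest adjusted p of a member was 0.398 (limma). Members under 10 FPKM are limited most by the spread between libraries.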

Other observations

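Shares within pairs of related members, computed after the values had been seen, are given as values. Atg2a made up 77.4% and 75.3% of the summed FPKM of Atg2a and Atg2b in WT and 89.4% and 89.9% in KO, and the groups did not overlap. Ulk2 made up 20.7% and 44.0% of the summed FPKM of Ulk1 and Ulk2 in WT and 10.1% and 24.2% in KO, with overlapping groups. Bnip3 made up 11.8% and 21.5% of the summed FPKM of Bnip3 and Bnip3l in WT and 4.26% and 18.6% in KO, again with overlapping groups. Sqstm1 made up 69.8% and 63.7% of the summed FPKM of 5 cargo receptor genes (Sqstm1, Optn, Nbr1, Calcoco1 and Tax1bp1) in WT and 70.8% and 72.2% in KO, where the KO libraries were both the higher.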
